A study of Mus musculus with 12 samples.

Results

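The genes described here are those of hepatic glucose output, glycogen and glycolysis, a list of 33 mouse gene symbols. The list was chosen by name with earlier results of these data known, so its shares against all genes below are description only. Of these, 32 are among the 13554 genes of the deposited table, all 32 passed the filter on low values (3 or more libraries at 10 or above, which kept 12570 genes), and Eno1 was not analysed here. Liver RNA of wild-type male C57Bl/6J mice was sequenced 3 days after partial hepatectomy, an operation that takes out a share of the liver and leaves the rest to regrow. The 12 libraries form 4 groups of 3. PH80_HC is removal of 80% of the liver in an arm named HC, a name the labels do not explain. PH80_G+H is the same resection with G-CSF, a cytokine that drives neutrophil production, together with HNF4a, a transcription factor that maintains hepatocyte identity. PH80 is the 80% resection and PH70 the 70% resection, both with no added agent named. No group without surgery is among the libraries, so every difference below is between 2 kinds of operated liver. Whether the replicates of a group are separate mice is not stated in the labels; the tests below therefore use the spread among libraries, which may be technical.

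Liver cells take up glucose and fructose after a meal, store glucose as glycogen or break it down to pyruvate, and between meals make glucose from glycogen, lactate and amino acids. The liver form of pyruvate kinase serves the breakdown to pyruvate, whereas Pck1 and the glucose-6-phosphatase system drive the output direction. After partial hepatectomy a smaller mass of liver has to hold blood glucose while its cells divide.

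Depth, recovered from the values, lay between 9.72 and 44.5 M reads, at its lowest in PH70 replicate 3. Values are normalised reads, that is, reads divided by 1 size factor per library, and ± gives the SD over 3 libraries. Log2 differences are on the log2(value + 1) scale. Tests were made with limma, and Benjamini-Hochberg adjustment covered all 12570 genes. A gene is said to have risen or fallen where its adjusted p was under 0.05. PH80 replicate 2 stood apart in its marker sums: the summed values of 10 stellate and matrix genes were 24326 there, against 8731 and 10202 in the other PH80 libraries. Those of 10 neutrophil genes were 5914 there, against 317 and 613. The largest values in that stellate and matrix sum were of collagen genes (Col1a1 7666, Col3a1 6328 and Col1a2 3501). Lrat (192) and Reln (472), alone of the 10, were lower there than in the other PH80 libraries. The 10 hepatocyte markers, all in the table, summed to between 3045440 and 4567690 in PH80_HC, 2822390 and 3373570 in PH80_G+H, 2302130 and 2666190 in PH80, and between 3271450 and 3549050 in PH70. Most of each sum was albumin (Alb): without it the other 9 summed to between 926238 and 1568850 in PH80_HC, 787043 and 993193 in PH80_G+H, 753372 and 885016 in PH80, and between 758719 and 966702 in PH70, so that PH80 and PH70 overlapped. None of the 10 was called in PH80 against PH70, and their median log2 difference was -0.12. The 10 macrophage markers summed to 20983, 21090 and 37134 in PH80_HC, above every library of PH80_G+H (at most 16660) and of PH70 (at most 15819), while PH80 ran from 12254 to 29269. The 10 markers of cycling cells summed to between 5950 and 11047 in PH80_HC, 5020 and 7463 in PH80_G+H, 11496 and 20789 in PH80, and between 7613 and 8529 in PH70, and 1 of them (Cdk1) rose in PH80. The part of these differences in the values below was not tested, and fewer hepatocytes cannot be told apart from less RNA per hepatocyte in whole tissue.

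In PH80, 6 of the 32 genes fell relative to PH70 (18.8%) and 0 rose, where 3.82% of all genes tested were called in that comparison, 2.73% as lower and 1.09% as higher. The 6 were G6pc, Gys2, Gbe1, Slc2a5, Pklr and Pdk2, and they came from each of the roles described below. Counting every gene, the PH80 mean was below the PH70 mean for 23 of 32, with a median log2 difference of -0.35 against 0.01 over all genes tested. For 11 genes each PH80 library lay below each PH70 library (34.4%, against 14.2% of all genes tested), and for 1 gene, Ldha, each lay above (3.13%, against 12.8%). PH80 had the lowest of the 4 group means for 19 of the 32 genes (59.4%, against 27.9% of all genes tested). PH70 had the highest for 15 (46.9%, against 27.5%). A moderated F test over the 4 groups called Slc2a5, Pdk2, Gys2 and G6pc (adjusted p = 0.00338, 0.0141, 0.0222 and 0.0251), where 1.85% of all genes tested were called.

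The 2 treated arms were each compared with PH80 as well, so those comparisons and the first share the PH80 libraries. In PH80_HC, 2 genes rose relative to PH80, Slc2a5 and Pdk2, and 0 fell, where 0.891% of all genes were called (0.652% as higher). In PH80_G+H, 1 gene rose, Slc2a5, and 0 fell, where 0.119% of all genes were called (0.111% as higher). The mean was above that of PH80 for 21 of 32 genes in PH80_HC (median log2 difference 0.12) and for 24 of 32 in PH80_G+H (median 0.24), with medians of 0.01 and 0.00 over all genes. Each library of PH80_G+H lay above each of PH80 for 10 genes (31.3%, against 8.82% of all genes) and below for 1, Hk2 (3.13%, against 8.11%). Each library of PH80_HC lay above each of PH80 for 4 (12.5%, against 8.26%) and below for 0 (against 7.38%). Setting every library to the same total turned the direction of the PH80_HC median, to -0.21, where the median over all genes moved to -0.31; the 21 genes with a higher mean became 11.

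**Figure D1:**
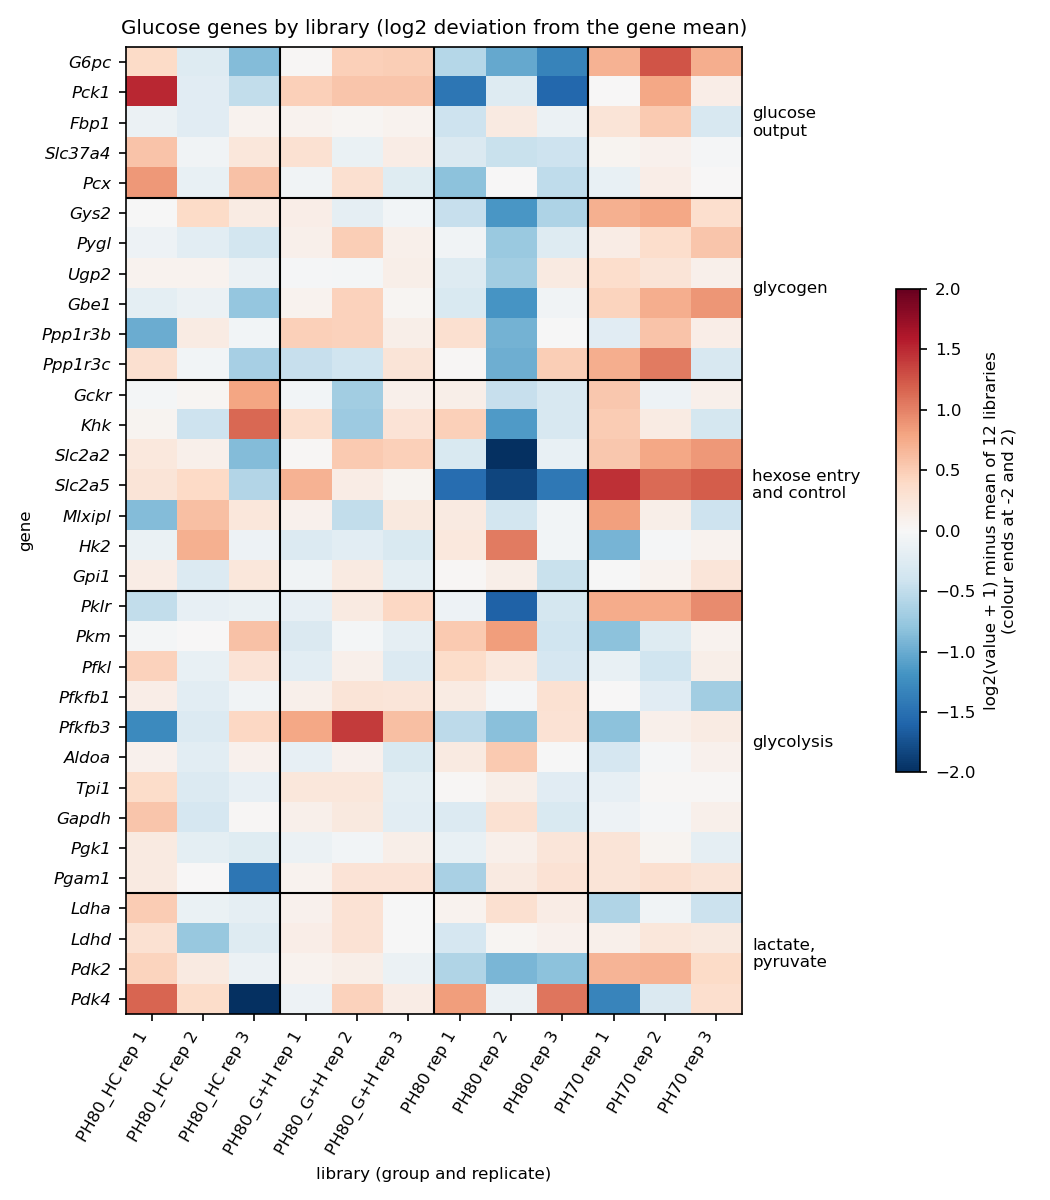
Log2(value + 1) of each of the 32 genes (down the page, grouped by role) in each of the 12 libraries (across), as the deviation from the gene's mean over all libraries; the colour scale ends at -2 and 2. PH80 columns are mostly blue and PH70 columns mostly red for G6pc, Gys2, Gbe1, Slc2a2, Slc2a5, Pklr and Pdk2, while the glycolysis rows between Aldoa and Pgk1 are pale throughout.

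Glucose output was represented by 5 genes, and G6pc alone among them fell in PH80. G6pc is the catalytic subunit of glucose-6-phosphatase, the last enzyme of both gluconeogenesis and glycogen breakdown (chromosome 11, 101367561 to 101377903 on GRCm38). It had 4724, 3030 and 1987 normalised reads in PH80_HC, 3694, 5061 and 5118 in PH80_G+H, 2454, 1794 and 1446 in PH80, and 5881, 8644 and 5983 in PH70. The highest PH80 library lay below the lowest PH70 and PH80_G+H libraries, while PH80_HC overlapped PH80. The log2 difference of PH80 from PH70 was -1.86 (SE 0.30, adjusted p = 0.00662), a 3.63-fold lower level. It lost the call on leaving out PH70 replicate 2 (adjusted p = 0.0513; range over 23 alternatives 9.31e-07 to 0.0513). Against PH80 the log2 difference was 1.30 in PH80_G+H (SE 0.30, adjusted p = 0.139) and 0.72 in PH80_HC (SE 0.30, adjusted p = 0.291). DESeq2 called G6pc higher in PH80_G+H (adjusted p = 0.00807, range over 23 alternatives 0.00807 to 0.433).

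The 250 bases upstream of the RefSeq start of G6pc (GRCm38.p6) are shown because it was the gene of glucose output that fell. They were searched on both strands for the letters of 8 elements named in the methods, and the capitals mark the single match, an HNF1 element (GTTAAT) whose first base is at position -221, counted from -1 at the base before the start. Such a match stood in 6.43% of 32851 mouse promoter windows of the same length, and it says nothing of binding.
G6pc, chr11:101367466-101367715, plus strand: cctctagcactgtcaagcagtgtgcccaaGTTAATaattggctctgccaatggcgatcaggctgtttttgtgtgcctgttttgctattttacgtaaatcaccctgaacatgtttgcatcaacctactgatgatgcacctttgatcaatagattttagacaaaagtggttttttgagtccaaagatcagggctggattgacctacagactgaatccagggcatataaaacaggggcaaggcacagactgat

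Pck1, the cytosolic enzyme that turns oxaloacetate into phosphoenolpyruvate, had 65284, 19493 and 16163 normalised reads in PH80_HC, 31800, 33392 and 33416 in PH80_G+H, 8413, 19116 and 7716 in PH80, and 22879, 39164 and 24946 in PH70. All 3 PH80 libraries lay below every PH70 and PH80_G+H library, yet the differences did not pass the test: -1.39 from PH70 (SE 0.47, adjusted p = 0.12), 1.61 for PH80_G+H over PH80 (SE 0.47, adjusted p = 0.227) and 1.35 for PH80_HC over PH80 (SE 0.47, adjusted p = 0.204). DESeq2 called the last of these (adjusted p = 0.0287, range over 23 alternatives 0.0287 to 0.465). Without PH80_HC replicate 1, the highest library, the difference from PH70 had an adjusted p of 0.0415 (range over 23 alternatives 0.0415 to 0.353).

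The other three genes of this role did not pass the test by limma. Slc37a4, the transporter that carries glucose-6-phosphate to G6pc, had 3207, 2042 and 2502 normalised reads in PH80_HC, 2647, 1952 and 2392 in PH80_G+H, 1752, 1580 and 1615 in PH80, and 2224, 2289 and 2114 in PH70. Its PH80 libraries were the lowest 3 of the 12, with adjusted p-values of 0.213 against PH70, 0.136 for PH80_HC and 0.361 for PH80_G+H. DESeq2 called Slc37a4 higher in PH80_HC than in PH80 (adjusted p = 0.033; log2 difference 0.62 by limma, SE 0.19, adjusted p over 23 alternatives between 0.033 and 0.345). Fbp1, fructose-1,6-bisphosphatase, had 18006, 16745 and 20563 in PH80_HC, 20571, 20156 and 20567 in PH80_G+H, 14809, 22196 and 18092 in PH80, and 23538, 28237 and 15716 in PH70. Those 4 groups overlapped, and the log2 difference of PH80 from PH70 was -0.27 (SE 0.25, adjusted p = 0.557). Pcx, the mitochondrial pyruvate carboxylase, averaged 13013 ± 4290 in PH80_HC, 9393 ± 1974 in PH80_G+H, 7037 ± 2103 in PH80 and 9283 ± 884 in PH70, with a log2 difference of 0.87 between PH80_HC and PH80 (SE 0.28, adjusted p = 0.175; called by DESeq2 at 0.048, range over 23 alternatives 0.048 to 0.509).

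**Figure D2:**
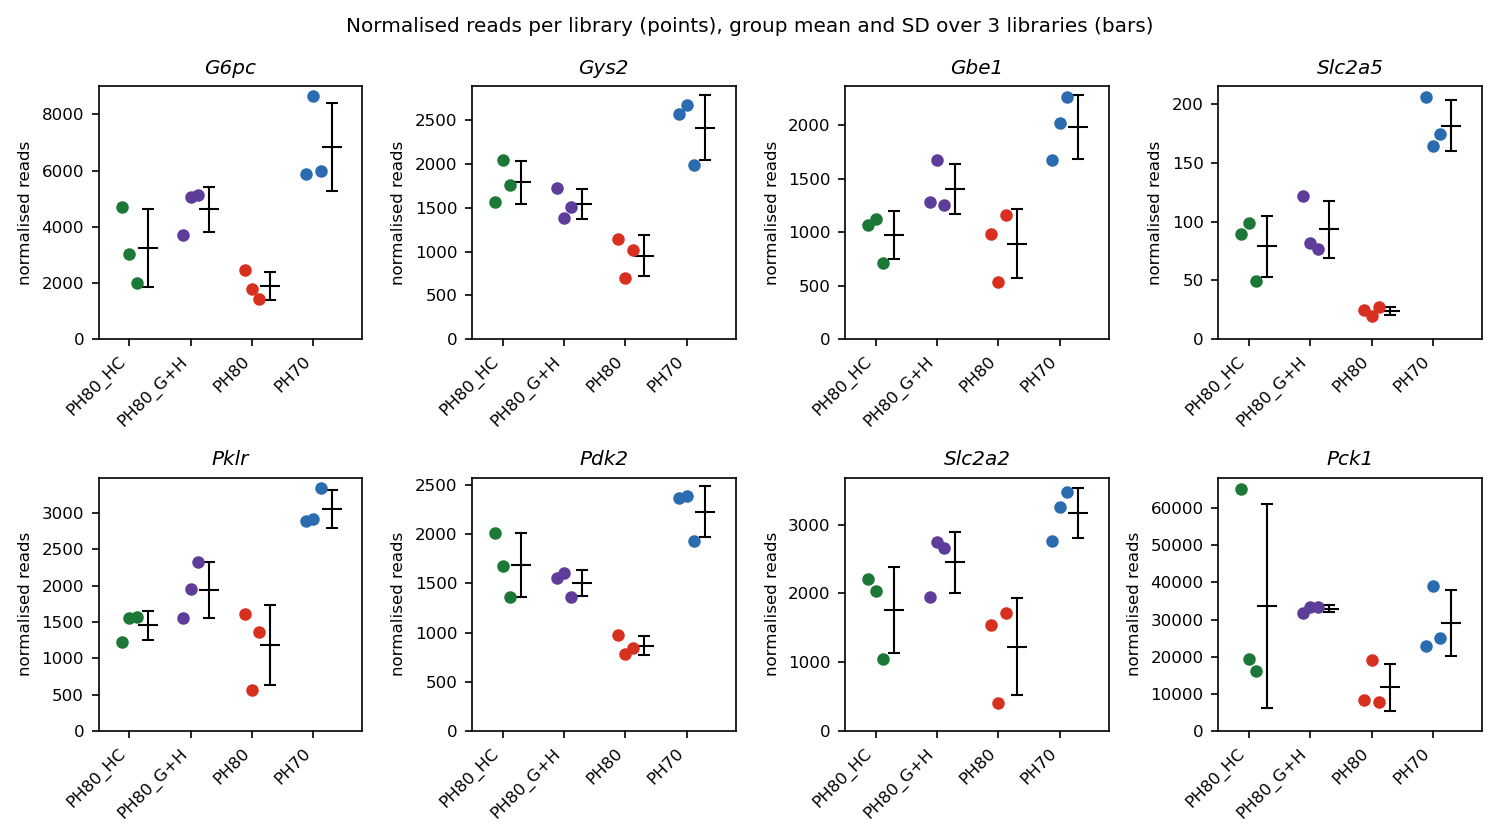
Normalised reads (vertical axes, linear from 0) of 8 genes in each library, as points, with the group mean and SD over 3 libraries as bars, for PH80_HC, PH80_G+H, PH80 and PH70. In each of the 8 genes the PH80 points lie below every PH70 point. Slc2a5 reaches at most 27.1 in PH80 and at least 165 in PH70, and 1 PH80_HC library sets the wide bar of Pck1.

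Of 6 glycogen genes, Gys2 and Gbe1, which both act in building glycogen, fell in PH80. Gys2, the liver glycogen synthase (chromosome 6, 142422613 to 142473109), had 1567, 2049 and 1754 normalised reads in PH80_HC, 1726, 1387 and 1509 in PH80_G+H, 1145, 698 and 1021 in PH80, and 2572, 2674 and 1985 in PH70. The 3 PH80 libraries were the lowest of the 12, below both treated arms. The log2 difference of PH80 from PH70 was -1.35 (SE 0.21, adjusted p = 0.0055) and kept its call in all 23 alternatives. Over PH80 it was 0.93 in PH80_HC (SE 0.21, adjusted p = 0.0558) and 0.71 in PH80_G+H (SE 0.21, adjusted p = 0.227). DESeq2 and the fit with length and GC trends removed called it in PH80_HC (adjusted p = 0.00381 and 0.0259, range over 23 alternatives 0.00381 to 0.187).

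Gbe1, the enzyme that adds branches to glycogen (chromosome 16, 70313949 to 70569716), had 1072, 1127 and 715 normalised reads in PH80_HC, 1282, 1678 and 1260 in PH80_G+H, 984, 539 and 1161 in PH80, and 1672, 2020 and 2261 in PH70. Every PH80 library lay below every PH70 and PH80_G+H library. The log2 difference of PH80 from PH70 was -1.21 (SE 0.27, adjusted p = 0.0275), 2.31-fold lower. The call was lost in 9 of 23 alternatives, with an adjusted p of 0.0611 without PH80 replicate 1, 0.0892 without PH80 replicate 2, and 0.0519, 0.122 and 0.0853 without PH70 replicates 1, 2 and 3 (range 0.00249 to 0.122).

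Pygl, the liver glycogen phosphorylase that releases glucose units, did not pass the test although its groups separated. It had 6632, 6157 and 5517 normalised reads in PH80_HC, 7625, 9947 and 7626 in PH80_G+H, 6769, 4262 and 5933 in PH80, and 7883, 9019 and 10389 in PH70. PH80 and PH80_HC lay below every library of the other two groups, with a log2 difference of PH80 from PH70 of -0.70 (SE 0.22, adjusted p = 0.0895; 0.0245 by DESeq2, range over 23 alternatives 0.0245 to 0.249). Ugp2, which makes the UDP-glucose that glycogen synthase uses, and Ppp1r3b and Ppp1r3c, which bring protein phosphatase 1 to glycogen, had log2 differences of -0.50, -0.36 and -0.63 (adjusted p between 0.205 and 0.558). Ppp1r3c ranged from 496 to 1375 in PH80 and from 780 to 2014 in PH70.

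Among 20 other glycogen genes tested, 1 fell in PH80 (5%, against 3.82% of all genes called), and it is a further subunit of this kind. Ppp1r3g, a glycogen-targeting subunit of protein phosphatase 1, had 44.5, 26.3 and 14.3 normalised reads in PH80_HC, 1.84, 10.9 and 4.76 in PH80_G+H, 0, 0.748 and 1.04 in PH80, and 57.5, 87.7 and 66.9 in PH70. The PH80 values rest on 0, 1 and 1 reads, so no fold is given. Limma called it lower in PH80 than in PH70 (adjusted p = 0.000695) and higher in PH80_HC than in PH80 (adjusted p = 0.0118), but not in PH80_G+H over PH80 (adjusted p = 0.242). The call for PH80_HC was lost in 1 of 23 alternatives, at an adjusted p of 0.0687. Pgm1, a phosphoglucomutase, averaged 201 ± 33.5 in PH80 and 184 ± 45.9 in PH70 (adjusted p = 0.785). Pgm2 was more abundant, at 2729 ± 365 in PH80 and 3913 ± 303 in PH70. Its PH80 libraries reached at most 3140 and its PH70 libraries at least 3678, and limma did not call it. The annotation behind these names is not stated.

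Entry of hexoses into the cell held the gene with the largest difference of the 32. Slc2a5, the fructose transporter GLUT5 (chromosome 4, 150119283 to 150144169), had 89.1, 98.4 and 49.3 normalised reads in PH80_HC, 121, 82.1 and 76.8 in PH80_G+H, 25.3, 20.2 and 27.1 in PH80, and 206, 165 and 174 in PH70. The 4 groups formed 3 tiers, with PH80 lowest, PH70 highest, and both treated arms between them with no overlap to either. PH80 was 7.26-fold lower than PH70 (log2 difference -2.86, SE 0.29, adjusted p = 0.000695), a call kept in all 23 alternatives. PH80_HC was 3.06-fold above PH80 (log2 difference 1.62, SE 0.29, adjusted p = 0.0249) and PH80_G+H 3.7-fold above it (1.89, SE 0.29, adjusted p = 0.0243). Against PH70 the treated arms stood at -1.24 (PH80_HC, adjusted p = 0.11) and -0.97 (PH80_G+H, adjusted p = 0.45).

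The gene was scarce in these livers, and its PH80 values rest on 18, 27 and 26 reads. The call in PH80_HC was lost in 6 of 23 alternatives, among them leaving out PH80_HC replicate 1 or 2 (adjusted p = 0.0778 and 0.0576) or PH80 replicate 1 or 2 (0.0613 and 0.0552), with a range of 7.57e-05 to 0.13. That in PH80_G+H was lost in 9, among them leaving out PH80_G+H replicate 1, 2 or 3 (adjusted p = 0.143, 0.0886 and 0.092), PH80 replicate 1 or 2 (0.0659 and 0.142) or PH70 replicate 2 (0.054), with a range of 1.32e-05 to 0.143. The window upstream of its RefSeq start is shown because Slc2a5 was the gene called in all 3 of these comparisons. Capitals mark 3 GC boxes (GGGCGG, here all on the opposite strand as CCGCCC), which begin at -172, -160 and -154, with the last pair side by side. A GC box stood in 32.7% of the windows of all genes.
Slc2a5, chr4:150119094-150119343, plus strand: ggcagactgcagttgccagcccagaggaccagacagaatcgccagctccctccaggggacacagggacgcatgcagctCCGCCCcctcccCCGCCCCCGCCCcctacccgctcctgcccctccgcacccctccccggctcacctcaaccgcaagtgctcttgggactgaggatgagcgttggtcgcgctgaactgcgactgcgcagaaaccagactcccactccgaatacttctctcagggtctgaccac

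Slc2a2, GLUT2, the main glucose transporter of hepatocytes, had 2210, 2033 and 1044 normalised reads in PH80_HC, 1946, 2749 and 2665 in PH80_G+H, 1539, 413 and 1716 in PH80, and 2765, 3256 and 3479 in PH70. PH80 lay below PH70 and PH80_G+H without overlap, and PH80 replicate 2 was by far the lowest. The log2 difference of PH80 from PH70, -1.61 (SE 0.44), missed the threshold at an adjusted p of 0.0578. It passed without PH80_HC replicate 3 (0.0352), without PH80 replicate 3 (0.0298) and by DESeq2 (0.0166), with a range over 23 alternatives of 0.0166 to 0.186. 

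The regulators and kinases at this step did not differ beyond their spread. Gckr, a nuclear regulatory protein of glucose use, had 3068, 3238 and 5470 normalised reads in PH80_HC, 3046, 1955 and 3405 in PH80_G+H, 3429, 2296 and 2538 in PH80, and 4580, 2941 and 3383 in PH70. Khk, ketohexokinase, the first enzyme of fructose breakdown, had 7684, 5542 and 16358 in PH80_HC, 9342, 4450 and 8898 in PH80_G+H, 10317, 3367 and 5917 in PH80, and 10525, 8292 and 5771 in PH70. Mlxipl, the glucose-sensing transcription factor ChREBP, had 2714, 7522 and 5780 in PH80_HC, 5269, 3505 and 5651 in PH80_G+H, 5593, 3830 and 4754 in PH80, and 8724, 5347 and 3735 in PH70. All 3 genes overlapped between every pair of PH80, PH80_HC and PH70, and their log2 differences of PH80 from PH70 were -0.40, -0.43 and -0.26 (SE 0.28, 0.45 and 0.37, adjusted p = 0.426, 0.605 and 0.72).

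Hk2, the hexokinase of muscle and of many tumours, averaged 62.5 ± 26.6 in PH80 and 37.9 ± 13.0 in PH70 (adjusted p = 0.289 for a log2 difference of 0.69). Of 23 other genes of glycolysis and hexose entry tested, 2 fell in PH80 (8.7%, against 3.82% of all genes called). They were Slc2a9, a urate and hexose transporter, and Aldoc, the brain-type aldolase. There, edgeR called 2 of the 23 and DESeq2 7. Slc2a9 stood at 605 ± 107 in PH80_HC, 553 ± 118 in PH80_G+H, 308 ± 26.4 in PH80 and 654 ± 24.1 in PH70, and every library of both treated arms lay above every PH80 library. It had log2 differences of -1.09 from PH70 (SE 0.19, adjusted p = 0.00928) and 0.96 for PH80_HC over PH80 (SE 0.19, adjusted p = 0.0344). For PH80_G+H over PH80 the difference was 0.83 (SE 0.19, adjusted p = 0.139), which DESeq2 called (0.0101, range over 23 alternatives 0.0101 to 0.449). Aldoc averaged 173 ± 61.2 in PH80 and 392 ± 15.4 in PH70 (log2 difference -1.24, adjusted p = 0.0387). Aldoc lost its call in 9 of 23 alternatives, without PH80_G+H replicate 1 or 3 (0.0502 and 0.0546), PH80 replicate 1 or 2 (0.0576 and 0.127) or PH70 replicate 1, 2 or 3 (0.0847, 0.151 and 0.0876) among them (range 0.00633 to 0.151). Slc2a9 lost the call against PH70 without PH70 replicate 2 (0.0551; range 3.03e-05 to 0.0551). The call of Slc2a9 in PH80_HC was lost in 12, without PH80_HC replicate 1 or 2 (0.104 and 0.0654), PH80_G+H replicate 3 (0.0547), PH80 replicate 1, 2 or 3 (0.112, 0.071 and 0.0599) or PH70 replicate 2 (0.0548) among them (range 0.000444 to 0.147).

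**Figure D3:**
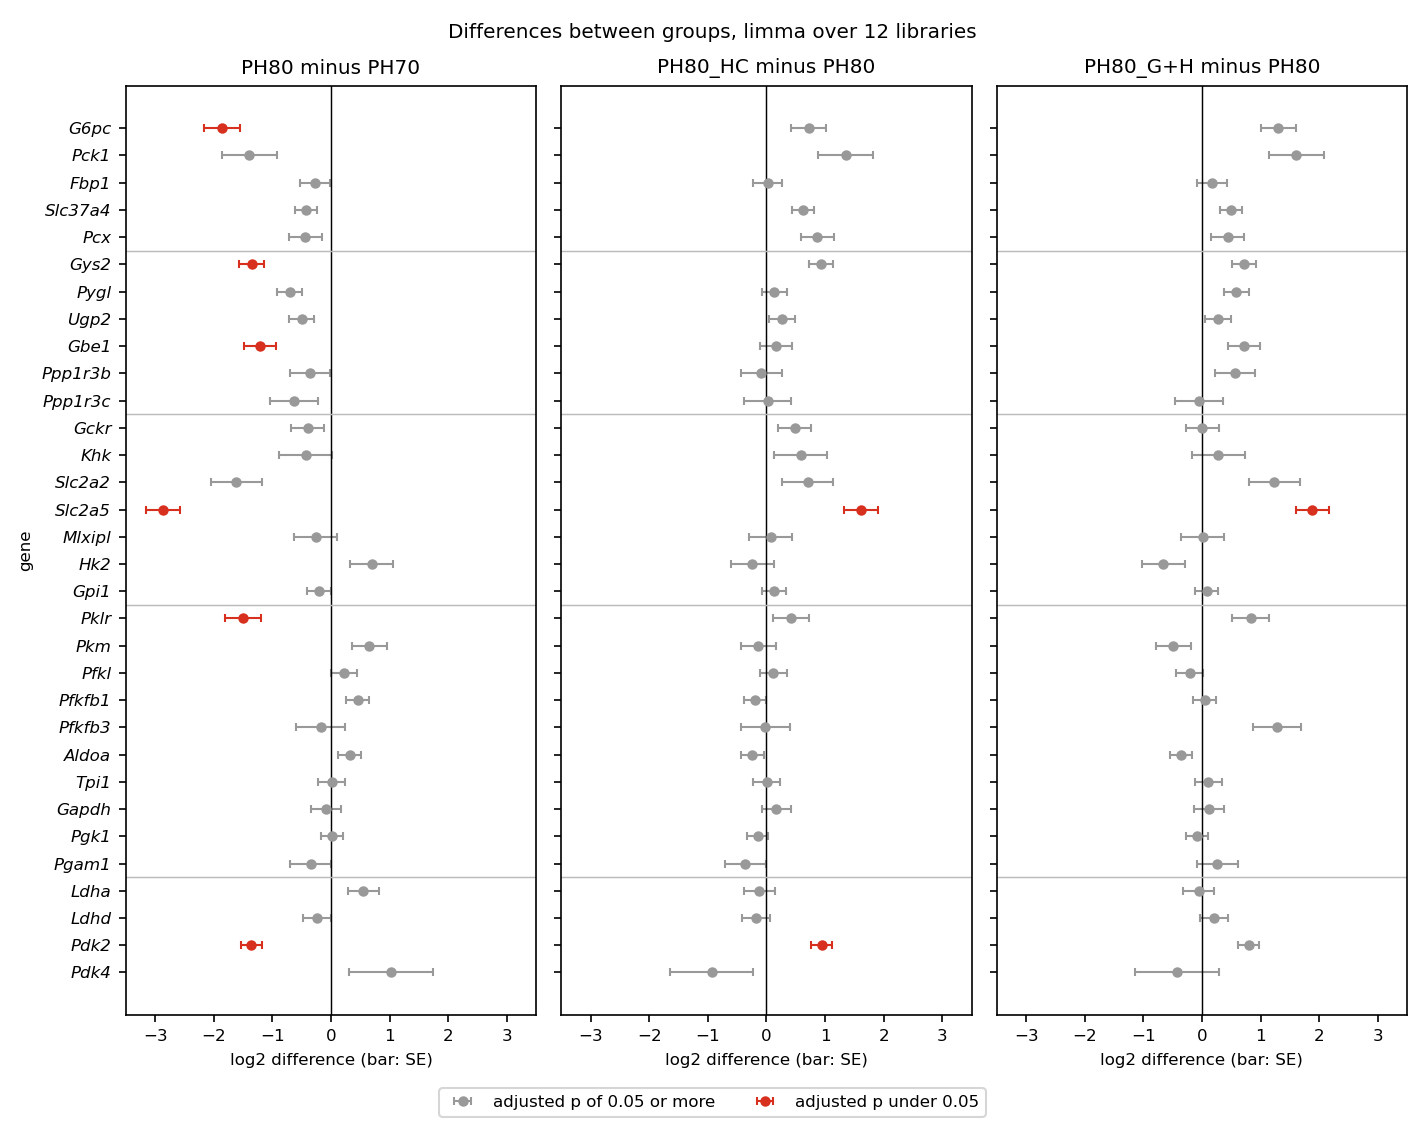
Log2 differences between groups for the 32 genes (down the page, by role; horizontal bars are SE), in 3 panels for PH80 minus PH70, PH80_HC minus PH80 and PH80_G+H minus PH80; red marks an adjusted p under 0.05. The 6 red points of the first panel lie between -2.86 and -1.21, the red points of the second panel are Slc2a5 at 1.62 and Pdk2 at 0.95, and that of the third is Slc2a5 at 1.89.

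In glycolysis, the liver-type pyruvate kinase was the one gene of 10 that fell in PH80. Pklr (chromosome 3, 89136142 to 89146784), which makes pyruvate at the last step, had 1228, 1551 and 1572 normalised reads in PH80_HC, 1549, 1954 and 2318 in PH80_G+H, 1615, 564 and 1360 in PH80, and 2890, 2912 and 3347 in PH70. Every library with the larger resection, treated or not, lay below every PH70 library. The log2 difference of PH80 from PH70 was -1.50 (SE 0.31, adjusted p = 0.0204), 2.83-fold lower; those of PH80_HC and PH80_G+H from PH70 were -1.08 (adjusted p = 0.185) and -0.67 (adjusted p = 0.837). The call was lost without PH70 replicate 1, 2 or 3 (adjusted p = 0.0532, 0.0835 and 0.0598) and with every library set to the same total (0.0522), with a range over 23 alternatives of 0.000781 to 0.0835.

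Pkm, the pyruvate kinase of most other tissues, had 985, 1020 and 1529 normalised reads in PH80_HC, 835, 988 and 898 in PH80_G+H, 1461, 1811 and 771 in PH80, and 575, 850 and 1066 in PH70. PH80 and PH70 overlapped, with a log2 difference of 0.66 (SE 0.30, adjusted p = 0.23), and processed pseudogenes of Pkm make its count uncertain. Per kb of transcript, the ratio of Pklr to Pkm within a library was 1.04, 1.27 and 0.861 in PH80_HC, 1.55, 1.66 and 2.16 in PH80_G+H, 0.926, 0.261 and 1.48 in PH80, and 4.21, 2.87 and 2.63 in PH70. The lowest PH70 ratio, 2.63, exceeded the highest of all other libraries, 2.16, and PH80_G+H lay above PH80_HC and PH80 without overlap. The ratio was not tested. Its lowest value belongs to PH80 replicate 2, where the summed stellate and matrix markers and neutrophil markers were highest of the 12 libraries.

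**Figure D4:**
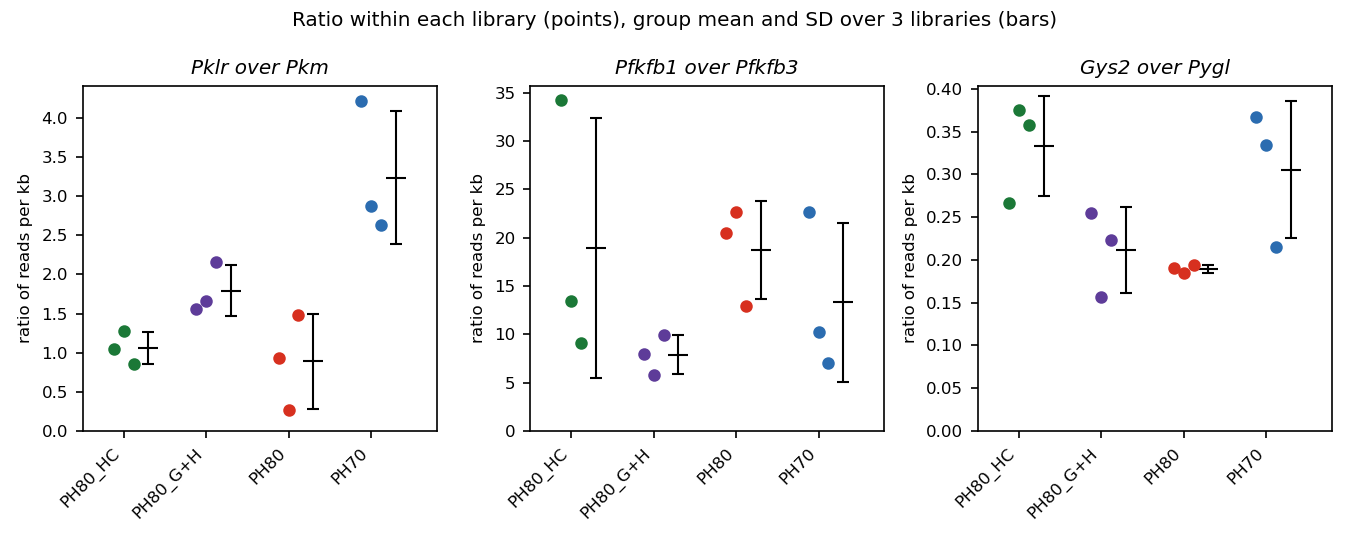
Ratios of reads per kb of transcript within each library (points; vertical axes linear from 0), with the group mean and SD over 3 libraries (bars), for Pklr over Pkm, Pfkfb1 over Pfkfb3 and Gys2 over Pygl. The Pklr over Pkm points of PH70 lie between 2.63 and 4.21, above all others, the Pfkfb1 over Pfkfb3 points of PH80_G+H lie between 5.80 and 9.91, and the Gys2 over Pygl points of PH80 lie between 0.184 and 0.194.

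The middle steps gave no call, neither those used by both glycolysis and gluconeogenesis (Gpi1, Aldoa, Tpi1, Gapdh, Pgk1 and Pgam1) nor phosphofructokinase, which acts in glycolysis alone (its liver subunit Pfkl). These 7 genes had log2 differences of PH80 from PH70 between -0.34 and 0.32, with the smallest adjusted p at 0.355. Their SE lay between 0.18 and 0.35, and taking 2 SE on each side, the 7 differences were bounded by -1.04 and 0.71. For PH80_HC over PH80 they lay between -0.36 and 0.17 and for PH80_G+H over PH80 between -0.36 and 0.26. Gapdh, glyceraldehyde-3-phosphate dehydrogenase, averaged 11795 ± 3685 in PH80_HC, 11114 ± 1557 in PH80_G+H, 10353 ± 2607 in PH80 and 10755 ± 745 in PH70. Gapdh, Aldoa, Tpi1, Pgk1, Pgam1 and Ldha have processed pseudogenes in the mouse genome, and no source used here says how reads shared with those were counted.

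The genes of the bifunctional enzymes that set fructose-2,6-bisphosphate, the activator of phosphofructokinase, gave no call either. Pfkfb1, the liver form, averaged 1159 ± 140 in PH80_HC, 1368 ± 83.5 in PH80_G+H, 1327 ± 150 in PH80 and 982 ± 232 in PH70 (PH80 over PH70: log2 difference 0.46, SE 0.19, adjusted p = 0.194). Pfkfb3, an inducible form with a strong kinase activity, had 98.0, 197 and 319 normalised reads in PH80_HC, 408, 632 and 363 in PH80_G+H, 166, 133 and 292 in PH80, and 135, 256 and 268 in PH70. The 3 PH80_G+H libraries were the highest of the 12, at log2 differences of 1.28 over PH80 (SE 0.42, adjusted p = 0.277) and 1.11 over PH70 (SE 0.42, adjusted p = 0.672).

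Of 4 genes of lactate and pyruvate fate, Pdk2 fell in PH80. Pdk2, a kinase that switches off the pyruvate dehydrogenase complex (chromosome 11, 95026258 to 95041354), had 2019, 1681 and 1361 normalised reads in PH80_HC, 1553, 1611 and 1360 in PH80_G+H, 976, 787 and 841 in PH80, and 2372, 2393 and 1931 in PH70. PH80 was below every library of the other groups. Its log2 difference from PH70 was -1.36 (SE 0.18, adjusted p = 0.00317), 2.57-fold lower and called in all 23 alternatives. PH80_HC was above PH80 by 0.95 (SE 0.18, adjusted p = 0.0306), and PH80_G+H by 0.80 (SE 0.18, adjusted p = 0.139; called by DESeq2 at 0.00831, range over 23 alternatives 0.00831 to 0.476). The call in PH80_HC was lost in 10 of 23 alternatives, among them without PH80_HC replicate 1 or 2 (adjusted p = 0.0989 and 0.0596), PH80_G+H replicate 3 (0.0523), PH80 replicate 1, 2 or 3 (0.0613, 0.071 and 0.083) or PH70 replicate 2 (0.0513), with a range of 0.00014 to 0.141.

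Pdk2 was called in the comparison with PH70 and in that with PH80_HC, and of the 2 windows that RefSeq starts give it, the one next to the annotated start of the gene is shown. That window holds 1 match and the other holds 0. The match is an E-box (CACGTG, in capitals) that begins at -126, a sequence found in 6.02% of all windows and in 8 of the 45 windows of the 30 genes that RefSeq matched. Among those 45, letters of a CRE (TGACGTCA) stood in 1, and those of a FOX element (GTAAACA), an HNF4 element (CAAAGTCCA) and a D-box (TTATGTAA) in 0. Over all windows the shares were 1.55%, 3.17%, 0.384% and 0.819%, in that order. At shares this low, counts of 0 or 1 in 45 windows do not set these genes apart. The windows of Pklr, Slc2a2 and Gbe1 hold no match to any of the 8 elements.
Pdk2, chr11:95041372-95041621, minus strand: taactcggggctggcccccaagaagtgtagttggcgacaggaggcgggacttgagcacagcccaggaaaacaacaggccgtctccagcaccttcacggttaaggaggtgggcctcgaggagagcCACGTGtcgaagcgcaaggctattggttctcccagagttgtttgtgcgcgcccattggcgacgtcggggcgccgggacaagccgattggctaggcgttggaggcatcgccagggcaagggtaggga

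The other genes at this branch point did not pass. Pdk4, the pyruvate dehydrogenase kinase raised by fasting, averaged 529 ± 204 in PH80 and 272 ± 143 in PH70, a log2 difference of 1.02 (SE 0.71, adjusted p = 0.421), and ran from 55.8 to 736 within PH80_HC. Ldha, the main lactate dehydrogenase subunit of glycolytic cells, had 49285, 31468 and 30592 normalised reads in PH80_HC, 36592, 42515 and 34610 in PH80_G+H, 36539, 43257 and 38406 in PH80, and 22793, 32827 and 25773 in PH70. Every PH80 library exceeded every PH70 library, at a log2 difference of 0.55 (SE 0.27, adjusted p = 0.252). Ldhd, which oxidises D-lactate, differed by -0.24 (SE 0.24, adjusted p = 0.582). Of 16 other genes of pyruvate and lactate handling tested, 2 fell in PH80 (12.5%, against 3.82% of all genes called). They were the kinase Pdk1 (436 ± 114 in PH80 and 872 ± 51.7 in PH70, adjusted p = 0.0287) and the phosphatase Pdp2, which switches the same complex back on (164 ± 76.8 in PH80 and 412 ± 79.5 in PH70, adjusted p = 0.024). Pdk1 lost its call in 8 of 23 alternatives, without PH80 replicate 1 or 2 (0.0516 and 0.106) or PH70 replicate 1, 2 or 3 (0.081, 0.125 and 0.0598) among them (range 0.00296 to 0.125). Pdp2 lost it in 6, without PH80 replicate 1 or 2 (0.102 and 0.0866) or PH70 replicate 1 or 2 (0.061 and 0.129) among them (range 0.00188 to 0.129).

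Related lists gave further calls, where 3.82% of all genes tested were called in PH80 against PH70. Of 19 other genes of gluconeogenesis tested, 1 (5.26%) fell in PH80: Lpin1, a phosphatidate phosphatase and coactivator of fasting genes. There, edgeR called 1 of the 19 and DESeq2 3. Lpin1 had 536, 600 and 933 normalised reads in PH80_HC, 1166, 1448 and 741 in PH80_G+H, 266, 246 and 269 in PH80, and 541, 779 and 1175 in PH70. The 3 PH80 libraries were the lowest and nearly equal, with a log2 difference of -1.60 from PH70 (SE 0.30, adjusted p = 0.0137). PH80_G+H lay 2.05 above PH80 (SE 0.30, adjusted p = 0.0243) and PH80_HC 1.36 above it (SE 0.30, adjusted p = 0.0529). The call against PH70 was lost without PH70 replicate 2 (0.0654; range 3.56e-05 to 0.0654). That in PH80_G+H was lost in 7 of 23 alternatives, without PH80_G+H replicate 1 or 2 (0.143 and 0.0909), PH80 replicate 1 or 2 (0.0659 and 0.126) or PH70 replicate 2 (0.054) among them (range 2.42e-07 to 0.143). Of 9 genes of the pentose phosphate pathway, limma, edgeR and DESeq2 each called 0 in the comparisons of PH80 with PH70 and of the treated arms with PH80. In each comparison 1 of the 9 had an unadjusted p under 0.05, where 21.4%, 14.3% and 10.5% of all genes had one.

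Of 30 genes of glucagon, insulin and glucocorticoid control, 4 fell in PH80 and 0 rose by limma (13.3%, against 3.82% of all genes called). There, edgeR called 2 and DESeq2 7. The PH80 mean was below that of PH70 for 25 of the 30 (median log2 difference -0.32). Txnip, a brake on glucose uptake that glucose itself induces, averaged 628 ± 102 in PH80 and 1851 ± 179 in PH70, a log2 difference of -1.57 (SE 0.23, adjusted p = 0.00446). Insr, the insulin receptor, averaged 901 ± 86.8 in PH80 and 1448 ± 102 in PH70 (-0.69, SE 0.17, adjusted p = 0.0427). The transcription factors Cebpa and Foxo3 fell by 1.36 and 1.09 on the log2 scale (adjusted p = 0.00814 and 0.0456). The call of Txnip held in all 23 alternatives, and that of Cebpa was lost without PH70 replicate 2 (0.0523; range 6.36e-06 to 0.0523). Insr and Foxo3 lost theirs in 13 and 14 alternatives, leaving out PH80 replicate 1 or 2 or any 1 PH70 library among them (ranges 0.00525 to 0.183 and 0.0126 to 0.186). Mlx, the partner protein of ChREBP, was among the 7 of DESeq2 and was higher in PH80 (1562 ± 153) than in PH70 (1005 ± 210), without overlap (adjusted p = 0.0662 by limma and 0.0207 by DESeq2, range over 23 alternatives 0.0207 to 0.202). Gcgr, the glucagon receptor, Foxo1, which drives glucose output in fasting, and Ppargc1a, its coactivator, had differences of -0.01, -0.16 and -0.50 (adjusted p = 0.988, 0.713 and 0.424). Hnf4a transcripts stood at 12248 ± 1633 in PH80_G+H and 10142 ± 2614 in PH80 (adjusted p = 0.679). In the treated arms over PH80, 0 of the 30 passed by limma or edgeR. At an unadjusted p under 0.05 there were 6 of the 30 in PH80_HC and 7 of the 30 in PH80_G+H. The shares of all genes under 0.05 were 14.3% and 10.5%, in that order. DESeq2 called 1 in PH80_HC (Insr) and 2 in PH80_G+H (Foxo3 and Klf15, a glucocorticoid-induced transcription factor). Over all genes tested, DESeq2 called 503 in PH80_HC and 203 in PH80_G+H relative to PH80.

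The treated arms were also set against PH70 and against each other. In PH80_HC over PH70, limma called 0 of the 32 genes, where 0.231% of all genes were called. There, 6 (18.8%) had an unadjusted p under 0.05, as did 15.8% of all genes, and edgeR called 0. DESeq2 called G6pc, Gbe1, Slc2a5 and Pklr, all lower in PH80_HC. Over all genes tested, DESeq2 called 253 in that comparison. Each PH80_HC library lay below each PH70 library for 8 genes (25%, against 9.07% of all genes) and above for 0 (against 7.96%). In PH80_G+H over PH70, limma, edgeR and DESeq2 each called 0, with 6 at an unadjusted p under 0.05 (18.8%, against 5.97% of all genes), where limma called 0.00796% of all genes. Each PH80_G+H library lay above each PH70 library for 3 genes (9.38%, against 5.95% of all genes) and below for 6 (18.8%, against 7.57%). Between PH80_HC and PH80_G+H the same tools called 0, with 1 gene, Pfkfb3, at an unadjusted p under 0.05 (log2 difference -1.30, adjusted p = 0.21; 13.6% of all genes were under 0.05), where limma called 0.255% of all genes (0.0875% as higher and 0.167% as lower in PH80_HC). Each PH80_HC library lay above each PH80_G+H library for 1 gene (3.13%, against 8.71%) and below for 3 (9.38%, against 8.4%).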

How the data were processed

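Poly(A)-selected, stranded libraries from 100 ng of total RNA (TruSeq Stranded mRNA, per the labels' protocols) were processed by the authors, per the submitters' processing notes, with GRCm38 (mm10) and DESeq2. The sources used here name no aligner, counter or annotation. Deposited values are a normalised signal, reads divided by 1 size factor per library: 100% of the values in each library were whole reads within 0.01. Genes at 10 or above in 3 or more libraries were tested with limma 3.58.1 (R 4.3.3) on log2(value + 1) over all 12 libraries, with group as the factor and an intensity trend, two-sided, with Benjamini-Hochberg adjustment over all genes tested and a threshold of 0.05. A fold change on this scale understates the change of low genes. The 6 comparisons and an F test over 4 groups were made. edgeR 4.0.16 and DESeq2 1.42.0 on the recovered reads were among the alternatives, and edgeR called 368 genes and DESeq2 950 in PH80 against PH70, where limma called 480.

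The 33 genes and the other lists were chosen with earlier results of these data known. Library values are given for G6pc, Pck1, Fbp1, Slc37a4, Gys2, Pygl, Gckr, Pklr, Pkm, Mlxipl, Slc2a2, Khk and each gene past the threshold; genes of the other lists are named where they passed, as are Pgm1, Foxo1, Ppargc1a, Gcgr, Insr and Hnf4a. Other genes with library values, and Mlx and Pgm2, were chosen after those were seen. Coordinates and transcript lengths are from GENCODE M21. Promoter sequences are from RefSeq (GRCm38.p6), which matched 30 of 32 genes (not Gys2 and Ppp1r3b). The elements searched on both strands were the E-box (CACGTG), CRE (TGACGTCA), FOX (GTAAACA), HNF4 (CAAAGTCCA), HNF1 (GTTAAT), D-box (TTATGTAA), CEBP (TTGCNNAA) and GC box (GGGCGG). The fit was tested on simulated data. Some genes named by the rule are not reported here.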

Additional observations from a re-analysis of the deposited data

How the results depend on the processing

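Of the 32 genes, the number called in PH80 against PH70 was 6 and stayed between 4 and 8 under the settings that kept all libraries; leaving out 1 library gave 3 to 7, with 3 without PH70 replicate 2. For PH80_HC against PH80 (2) it was 6 by DESeq2, 1 with no intensity trend, 0 with the same total in every library and 0 with the 2 compared groups only, and 0 to 2 on leaving out a library. For PH80_G+H against PH80 (1) it was 3, 0, 0 and 0 under the same 4 settings and 0 to 1 on leaving out a library. For PH80_HC against PH70 (0) it was 4 by DESeq2 and 0 to 1 on leaving out a library, and for the F test (4) it was 8 by DESeq2, 2 with no intensity trend and 1 to 4 on leaving out a library. In PH80_G+H against PH70 and PH80_HC against PH80_G+H it was 0 under every alternative. The median over the 32 genes turned its sign for PH80_HC against PH80 with the same total (-0.21, against 0.12) and for PH80_HC against PH80_G+H by DESeq2 (0.014, against -0.06), without the steepest length trend library of each group (0.0085) and without PH80_HC replicate 3 (0.023; -0.19 to 0.023 on leaving out any 1 library). Whether replicate numbers pair the libraries could not be settled with 3 libraries per group. Of 18 same-numbered pairs, 6 had deviations correlated above 0.1 (range -0.37 to 0.37), while differently numbered pairs ran from -0.53 to 0.43. With the replicate block the counts were 5, 2, 1, 0, 0 and 0 in the order PH80 and PH70, PH80_HC and PH80, PH80_G+H and PH80, PH80_HC and PH70, PH80_G+H and PH70, PH80_HC and PH80_G+H, and 3 by the F test. Counts over all genes moved more: for PH80 against PH70 from 480 to between 229 (same total) and 950 (DESeq2), with 303 without the steepest length trend libraries, 293 with the block and 61 to 725 on leaving out a library; for PH80_HC against PH80 from 112 to between 2 (2 groups only) and 503 (DESeq2), with 28 to 125 on leaving out a library; and for PH80_G+H against PH80 from 15 to between 0 and 203, with 0 to 26. They were 8 to 253 for PH80_HC against PH70 (29; 1 to 55 on leaving out a library), 0 to 66 for PH80_G+H against PH70 (1; 0 to 6), 8 to 306 for PH80_HC against PH80_G+H (32; 2 to 59) and 106 to 1226 for the F test (232; 27 to 279). With the same total the calls higher and lower were 121 and 108 in place of 137 and 343 for PH80 against PH70, 17 and 55 in place of 82 and 30 for PH80_HC against PH80, 0 and 0 in place of 14 and 1 for PH80_G+H against PH80, 5 and 16 in place of 14 and 15 for PH80_HC against PH70, and 7 and 32 in place of 11 and 21 for PH80_HC against PH80_G+H. With length and GC trends removed they were 30 and 7 for PH80_G+H against PH80, and the cause of these moves was not tested. Depth limits the values of Slc2a5, Hk2 and Ppp1r3g, which had as few as 18, 20 and 0 reads in a library.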

Other observations

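Within PH80_HC, single libraries held the extremes of several of the 32 genes. Replicate 1 had the highest Pck1 of all 12 libraries (65284), and replicate 3 the lowest Pdk4 (55.8) with a Pck1 of 16163. PH80_HC replicate 3 also had the steepest fall of expression with transcript length of the 12 libraries (slope -0.28 on the log2 scale), and the part of that in these values was not tested. Over the 32 genes, PH80 replicate 2 held the lowest value of 11 and PH80_HC replicate 1 the highest of 9.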
